A study of Mus musculus with 10 samples.

Results

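Integrins and other adhesion molecules were examined in Th17 cells of the mouse, helper T cells known for making IL-17, that had been cultured with DMSO or with TMP269, an inhibitor of class IIa histone deacetylases. The set held 38 of the 17493 genes in the deposited expression table. These were 20 integrin subunit genes, 2 cadherins, 9 genes for adhesion ligands, receptors and mucins, and 7 for the activators and adaptors that act on integrins from inside the cell. The members were chosen by gene symbol, with the TMP269 against DMSO results of the same 4 libraries already known. Their changes are therefore given as a description, and neither their number nor their direction supports anything further.

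All samples came from C57BL/6 mice. CD4 T cells were purified from spleen, and naive cells were activated on plate-bound antibodies to CD3 and CD28 with 20 ng/mL IL-6 and 2.5 ng/mL TGF-beta for 48 to 72 h. The controls, whose columns carry the name WT, received DMSO, and the other group received TMP269 before harvest. Each group had 2 RNA libraries. Nothing in the labels used here gives the dose, the length of exposure, the age of the mice or whether replicates came from separate mice or cultures. The p-values therefore cover only the spread between these libraries, which may be technical. The series also has 6 chromatin samples (4 for HDAC4 or HDAC7, and 2 inputs), not analysed here.

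Integrins are cell surface receptors made of an alpha and a beta chain, and the pairing sets the ligand. On a circulating T cell they are held in a form that binds weakly. Signals from the T cell receptor or chemokine receptors load the small GTPase Rap1 with GTP. Rap1, through its effector RIAM (Apbb1ip), helps bring talin to the beta chain tail. Talin and kindlin-3, bound to that tail, open the receptor. RAPL (Rassf5) is another effector of Rap1. In Th17 cells integrins guide entry into gut, skin and inflamed tissue and retention there.

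The 4 libraries held 20007042 to 25321455 reads. T cell identity was checked on 9 marker genes (Cd3d, Cd3e, Cd3g, Cd247, Cd4, Cd28, Lck, Thy1 and Trat1). All 9 were measured, their summed level was 51927 and 58280.4 normalised reads in the DMSO libraries and 54820 and 58013 with TMP269, and none was called different. Th17 genes did move. Il17a and Il17f, the cytokine genes, went from 1888 and 1949 to 750.4 and 786 and from 11745 and 13165 to 5159 and 6885 normalised reads, and Ccr6, a chemokine receptor, from 953 and 1012 to 455 and 416 (limma adjusted p = 1.27e-04, 0.00113 and 2.21e-04). Maf, a transcription factor, rose from 6226 and 6520.4 to 9025 and 9895 (limma adjusted p = 0.00226), and Il23r, Il22 and Rora were not called. Whether these changes bear on the adhesion genes was not tested. Ribosomal RNA, counted under Rn45s, took 2.20% of DMSO replicate 2 and 0.716% to 1.12% of the other libraries, so that library stood apart.

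Of the 38 members, 35 passed the filter on low values, which asked for 10 normalised reads in at least 2 libraries, and each of the 35 reached that level in at least 1 library of each group. Normalised reads are read counts divided by a size factor per library. They are not corrected for gene length, so levels are compared between libraries and not between genes. In limma's fit over all 12535 tested genes, with a Benjamini-Hochberg adjusted p under 0.05 as the threshold for a call, 10 members were higher with TMP269 and 3 were lower, against 12.8% of all tested genes called higher and 14.7% called lower (27.5% in all). Without DMSO replicate 2, calls were fewer both among the members and over all tested genes. Nothing is read from this comparison because the list was drawn up with the contrast known. The median log2 fold change of the 35 members was 0.18, beside 0.00 over all tested genes. Groups did not overlap in 23 of the 35, beside 66.6% of all tested genes. The TMP269 values were above in 15 of them and below in 8, beside 32.6% and 34.0% of all tested genes. The calls of 7 members held in all 14 alternative analyses, namely Itgae, Itga2, Itgav, Icam1 and Cd96, which were higher, and Cdh17 and Itga7, which were lower.

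**Figure D1:**
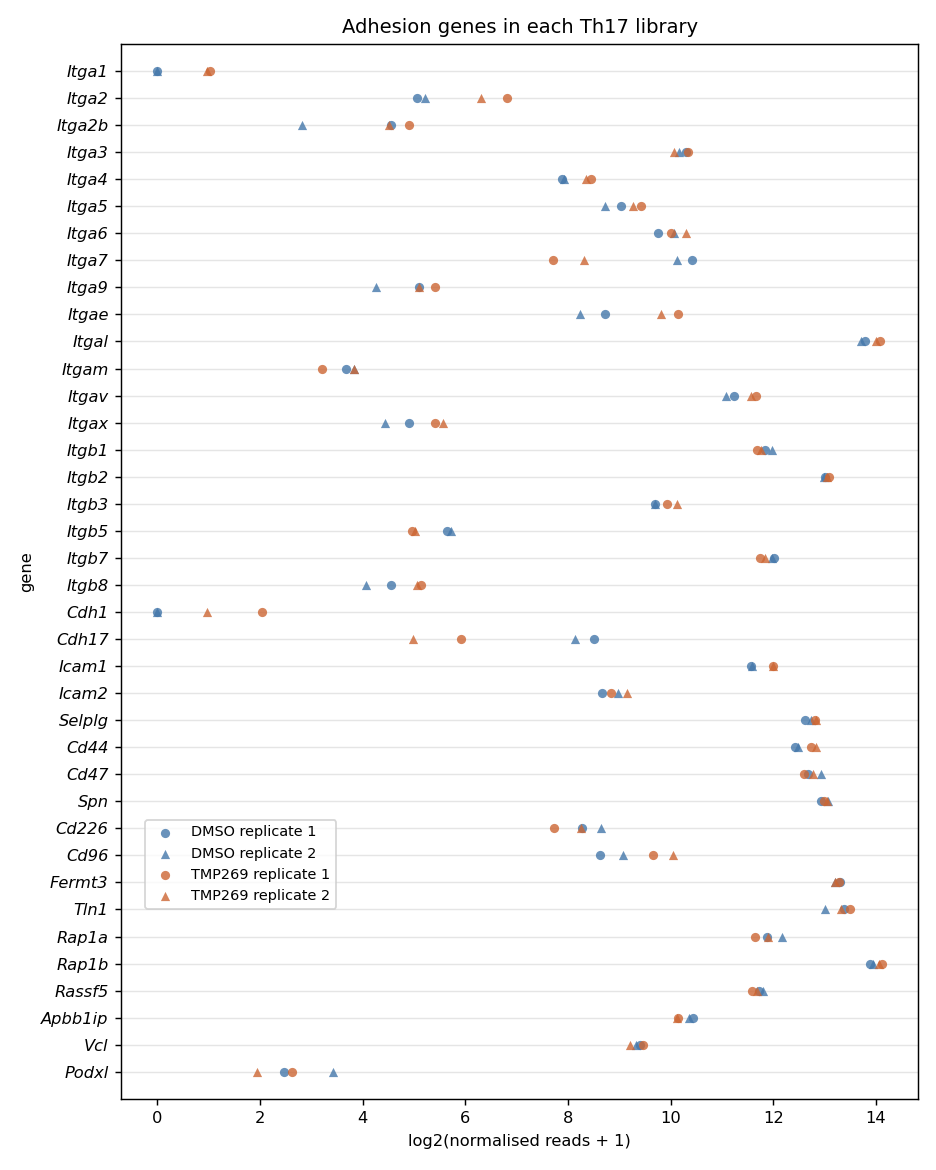
Level of each of the 38 genes in each library, as log2(normalised reads + 1), with DMSO in blue and TMP269 in orange, circles for replicate 1 and triangles for replicate 2. Itga7 and Cdh17 stand to the left with TMP269 and Itgae, Itga2 and Cd96 to the right, while most activator genes such as Fermt3 show groups that overlap.

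Promoter letters are shown for the 4 members that were called in every alternative analysis and have an entry in the RefSeq table used here, so that the sequence stands beside the genes that moved. Each is 300 bases on the gene's own strand, from 250 bases before to 50 bases after a RefSeq start site in GRCm38.p6. The coordinates belong to that build, whereas the expression table was made on mm9. Capitals mark matches, on either strand, to the 6 motifs searched: AP-1 (TGANTCA), RUNX (TGTGGT), the GC box (GGGCGG), the NF-kappaB site known from Icam1 (GGAAATTCC), a stretch of the MEF2 consensus (CTATTTA) and the TATA box (TATAAA). None of these motifs matched at overlapping letters in the 4 promoters.
Itga2, chr13:114932051-114932350, minus strand: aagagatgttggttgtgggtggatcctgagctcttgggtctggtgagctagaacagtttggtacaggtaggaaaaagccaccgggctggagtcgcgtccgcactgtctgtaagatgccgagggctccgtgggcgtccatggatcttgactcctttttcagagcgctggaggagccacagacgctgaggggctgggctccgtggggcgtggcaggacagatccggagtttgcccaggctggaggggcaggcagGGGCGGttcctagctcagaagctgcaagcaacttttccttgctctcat
Itgav, chr2:83724147-83724446, plus strand: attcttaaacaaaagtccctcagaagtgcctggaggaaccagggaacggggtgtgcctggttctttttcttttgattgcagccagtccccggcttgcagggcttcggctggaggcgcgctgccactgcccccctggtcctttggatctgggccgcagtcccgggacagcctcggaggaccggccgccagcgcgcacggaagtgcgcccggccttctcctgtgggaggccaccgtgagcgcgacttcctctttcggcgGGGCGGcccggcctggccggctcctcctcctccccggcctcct
Icam1, chr9:21015690-21015989, plus strand: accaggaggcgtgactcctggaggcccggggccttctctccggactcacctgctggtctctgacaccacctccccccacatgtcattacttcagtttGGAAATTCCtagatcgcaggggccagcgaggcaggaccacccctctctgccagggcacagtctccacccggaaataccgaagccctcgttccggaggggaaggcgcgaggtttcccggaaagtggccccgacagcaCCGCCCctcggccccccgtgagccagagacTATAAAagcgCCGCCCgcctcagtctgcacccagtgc
Cd96, chr16:46120199-46120498, minus strand: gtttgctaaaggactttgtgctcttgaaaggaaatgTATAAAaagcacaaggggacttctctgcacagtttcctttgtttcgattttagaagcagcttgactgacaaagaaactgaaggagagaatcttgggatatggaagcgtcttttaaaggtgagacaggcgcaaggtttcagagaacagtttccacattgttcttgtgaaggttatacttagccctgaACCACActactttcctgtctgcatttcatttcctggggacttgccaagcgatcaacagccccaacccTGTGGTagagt

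In these windows Itga2 and Itgav each had a single GC box just after the start site, and Icam1 had a pair of them on the opposite strand. The Icam1 window also held the NF-kappaB letters, at positions -153 to -145 from the listed start. Its TATA box letters lay at positions 14 to 19, after the listed start. Cd96 held a pair of RUNX matches and a TATA motif far upstream of the listed start. Promoters were listed for 25 of the 38 members. Among the 7 members called higher that have one, the GC box was found in 6 (Cd44, Icam1, Itga2, Itga4, Itga5 and Itgav), the RUNX letters in 2 (Cd96 and Itga4), the TATA box in 2 and the NF-kappaB letters in 1. Among the 16 members tested but not called, the GC box was found in 8, the RUNX letters in 4 and the AP-1 letters in 3. The TATA box, MEF2 letters and NF-kappaB letters were in 0 of the 16. The 1 member called lower that has a promoter held none of the 6 motifs. Of all 32851 promoters in the table, 35.7% held the GC box, 16.8% the RUNX letters, 13.6% the TATA box, 7.81% the AP-1 letters, 2.91% the MEF2 letters and 0.317% the NF-kappaB letters. The AP-1 and MEF2 letters were in 0 of the 7, which says only that these letters are not in these windows.

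The chains that pair with beta7 changed unequally. Itgae encodes alphaE (CD103), which with beta7 binds E-cadherin and holds lymphocytes in epithelia. It was at 422 and 302 normalised reads in DMSO replicates 1 and 2, and at 1124 and 900.4 with TMP269. Both TMP269 libraries lay far above both controls, and Itgae rose 2.81-fold (log2 fold change 1.49 ± 0.17, SE, limma adjusted p = 7.45e-04). Haspin, listed as Gsg2 in the table, lies within Itgae in the RefSeq annotation, and it stayed between 739.9 and 871 normalised reads in all 4 libraries. Itga4 encodes alpha4, which pairs with beta7 to bind MAdCAM-1 in gut venules and with beta1 to bind VCAM-1. Its values were 236 and 241 in DMSO and 348 and 324 with TMP269, a 1.41-fold rise (limma adjusted p = 0.0197) that was no longer called without DMSO replicate 2 (0.0569) or without TMP269 replicate 1 (0.113).

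The shared partner Itgb7 had lower values with TMP269 and was not called. It was at 4152 and 4039 normalised reads in DMSO and 3405 and 3646 with TMP269 (log2 fold change -0.22 ± 0.08, limma adjusted p = 0.0676). The 2 groups did not overlap, but the difference did not pass the threshold. Within each library the ratio of Itgae to Itga4 was 1.79 and 1.25 in DMSO and 3.23 and 2.78 with TMP269, so its mean was 2.00-fold higher, and the groups did not overlap. The ratio of Itgb7 to Itgb1 was 1.13 and 1.003 in DMSO and 1.04 and 1.05 with TMP269, and there the groups overlapped. A ratio of 2 genes keeps their unequal lengths, so only its change between libraries can be read.

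**Figure D2:**
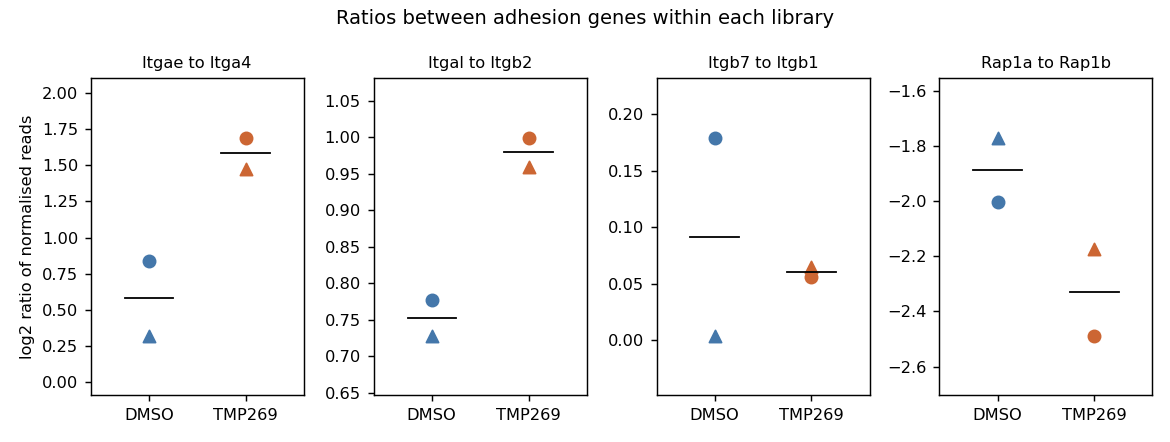
Log2 ratio of the normalised reads of paired genes within each library, for DMSO (blue) and TMP269 (orange), with circles for replicate 1, triangles for replicate 2 and a line at the mean of each group; each panel has its own vertical scale. The Itgae to Itga4 and Itgal to Itgb2 ratios were higher in both TMP269 libraries, the Rap1a to Rap1b ratio was lower, and the Itgb7 to Itgb1 ratio overlapped.

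Members of the leukocyte integrin group, which share the beta2 chain, showed a small rise in the alpha chain of LFA-1 and in its ligand. Itgal, the alphaL chain of LFA-1, was at 14086 and 13356 normalised reads in DMSO and at 17362 and 16486 with TMP269. The groups were apart and Itgal rose 1.23-fold (limma adjusted p = 0.0339), a call lost without DMSO replicate 2 (0.129), TMP269 replicate 1 (0.261) or TMP269 replicate 2 (0.114). Its partner Itgb2 was at 8223 and 8062 in DMSO and 8686 and 8478 with TMP269, a log2 fold change of 0.08 ± 0.08 that did not pass (limma adjusted p = 0.497). The Itgal to Itgb2 ratio was accordingly higher in both TMP269 libraries, 1.999 and 1.94 against 1.71 and 1.66.

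Icam1, the inducible ligand of LFA-1, was very even within groups, at 3009.7 and 3065 normalised reads in DMSO and 4093 and 4069 with TMP269. It rose 1.34-fold (log2 fold change 0.43 ± 0.07, limma adjusted p = 0.00427). Icam2, the constitutive ligand, was at 403 and 499 in DMSO and 455 and 565 with TMP269, so the groups overlapped and no change was called (limma adjusted p = 0.398).

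Itgam and Itgax, whose alphaM and alphaX chains are best known from myeloid and dendritic cells, were low. Itgam had 8 to 14 reads per library and overlapping groups (limma adjusted p = 0.733). Itgax was at 28.8 and 20.5 normalised reads in DMSO and 41.3 and 46.5 with TMP269, with no overlap but no call (log2 fold change 0.83 ± 0.30, limma adjusted p = 0.0709, and 0.0381 without DMSO replicate 1). The monocyte and macrophage markers, 9 genes of which 3 passed the filter, summed to 133 and 109 normalised reads in DMSO and 310.1 and 361 with TMP269. Most of the sum was Cd68, which was called higher, at 97.2 and 83.2 against 263 and 299 (limma adjusted p = 4.85e-04). Among these 9, Lyz2 was at 1.80 to 14.2 normalised reads and Fcgr1 had no reads in DMSO. The dendritic cell markers, 7 genes of which 5 passed the filter, had 2 called lower and 0 higher. They summed to 5389.6 and 4962 normalised reads in DMSO and 3152 and 3032 with TMP269. Most of that was the class II genes H2-Ab1 and H2-Aa, which B cells also express. H2-Ab1 went from 3456 and 3149 to 1659 and 1628, while H2-Aa fell less, from 1632 and 1415 to 1332 and 1225. Flt3 went from 214 and 303 to 69.3 and 57.9. Xcr1 went the other way, from 12.6 and 10.9 to 19.6 and 29.4, and Zbtb46 overlapped. The part of such cells in the Itgax and Itgam values was not tested. In RNA from a whole culture, fewer cells of a type and less RNA per cell cannot be told apart.

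Among chains that bind collagen and laminin, usually with beta1, Itga2 and Itga7 moved in opposite directions. Itga2, a collagen receptor chain, was at 32.4 and 36.2 normalised reads in DMSO and at 112 and 77.9 with TMP269, from 30 to 108 reads per library. Both TMP269 values lay above both controls, and Itga2 rose 2.67-fold (log2 fold change 1.42 ± 0.26, limma adjusted p = 0.00505). Its neighbour on the chromosome in RefSeq, Itga1, which encodes another collagen receptor chain, had 0 reads in both DMSO libraries and 1 read in each TMP269 library. A count of 0 allows up to 3 reads, or 2.70 and 3.62 normalised reads in DMSO replicates 1 and 2, so no change could be detected at this depth.

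Itga7, a laminin receptor chain best known from muscle, was at 1359 and 1113 normalised reads in DMSO and 209 and 316 with TMP269. Every TMP269 value was below every control value, and Itga7 fell 4.77-fold (log2 fold change -2.25 ± 0.19, limma adjusted p = 1.78e-04). The other laminin receptor chains were not called. Itga3 was at 1261 and 1139.8 in DMSO and 1287 and 1071 with TMP269 (log2 fold change -0.03 ± 0.11, limma adjusted p = 0.860, and 0.07 with equal library totals), and Itga6 was at 863 and 1072 against 1029 and 1252 (log2 fold change 0.24 ± 0.13, limma adjusted p = 0.200). Both had overlapping groups. With 1 library left out, the log2 fold change of Itga6 ran from 0.08 without DMSO replicate 1 (limma adjusted p = 0.672) and 0.10 without TMP269 replicate 2 to 0.40 without DMSO replicate 2, and it passed without TMP269 replicate 1 (0.0499).

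Itgb1, the common partner of these chains, was at 3667 and 4028 normalised reads in DMSO and 3275 and 3486 with TMP269. The groups did not overlap and the difference did not pass (log2 fold change -0.19 ± 0.08, limma adjusted p = 0.127). Itga9, whose chain binds tenascin and VCAM-1 with beta1, was low, at 33.3 and 18.1 in DMSO and 41.3 and 33.2 with TMP269, with overlap (limma adjusted p = 0.258). Its log2 fold change of 0.57 became 0.15 when DMSO replicate 2 was left out and 0.996 when DMSO replicate 1 was.

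Among chains of the receptors for fibronectin and vitronectin, Itgav, Itga5 and Itgb3 were called higher, while Itgb1, Itgb5 and Itgb8 were not called. Itgav encodes alphaV, which binds the RGD motif of matrix proteins and, with beta8, activates latent TGF-beta. It was at 2399.7 and 2148 normalised reads in DMSO and 3233 and 3047 with TMP269, with the groups apart, and rose 1.38-fold (log2 fold change 0.47 ± 0.09, limma adjusted p = 0.00533). Itga5, the alpha chain of the fibronectin receptor, was at 519 and 423 in DMSO and 684 and 615 with TMP269. It rose 1.38-fold (limma adjusted p = 0.0248), but it was no longer called without TMP269 replicate 1 (0.0866) or without DMSO replicate 2 (0.130), and its rise was smaller without DMSO replicate 2 (log2 fold change 0.32, against 0.47 with all libraries).

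Of the beta3, beta5 and beta8 partners of alphaV, beta3 was called. Itgb3 was at 827 and 829 normalised reads in DMSO and 978 and 1121 with TMP269, so the controls were closer to each other than the TMP269 libraries, and it rose 1.26-fold (limma adjusted p = 0.0320). That call was lost without DMSO replicate 1 (0.0624), DMSO replicate 2 (0.0855) or TMP269 replicate 2 (0.233). Itgb5 was at 48.6 and 51.9 in DMSO and 30.0 and 31.3 with TMP269, lower in both but without a call (log2 fold change -0.69 ± 0.26, limma adjusted p = 0.0762). Itgb8 was at 22.5 and 15.7 in DMSO and 34.1 and 32.3 with TMP269, higher in both but without a call (log2 fold change 0.79 ± 0.33, limma adjusted p = 0.106).

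Itga2b, the platelet fibrinogen receptor chain, had 25 and 5 reads in DMSO and 28 and 23 with TMP269, and did not pass (log2 fold change 1.02 ± 0.55, limma adjusted p = 0.195). DMSO replicate 1 lay among the TMP269 values and DMSO replicate 2 well below them. Without DMSO replicate 1 the log2 fold change was 1.90 and passed (0.0101), and without DMSO replicate 2 it was 0.15. The 4 platelet markers in the table summed to 3.62 to 11.4 normalised reads in the 4 libraries, and none passed the filter.

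By chain, 6 of 13 tested alpha genes were called higher and 1 lower, and 1 of 6 beta genes was called higher and 0 lower, beside 12.8% and 14.7% of all tested genes. By an unadjusted limma p under 0.05, 2 beta genes were higher and 2 lower, and no share of all tested genes was counted at that threshold. For the beta genes, edgeR and DESeq2 both called 1 higher and 0 lower. Over all tested genes edgeR called 1656 higher and 1750 lower, and DESeq2 1338 and 1528. The median log2 fold change was 0.47 for the alpha genes and -0.05 for the beta genes. Whether the chains differ as classes was not tested.

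**Figure D3:**
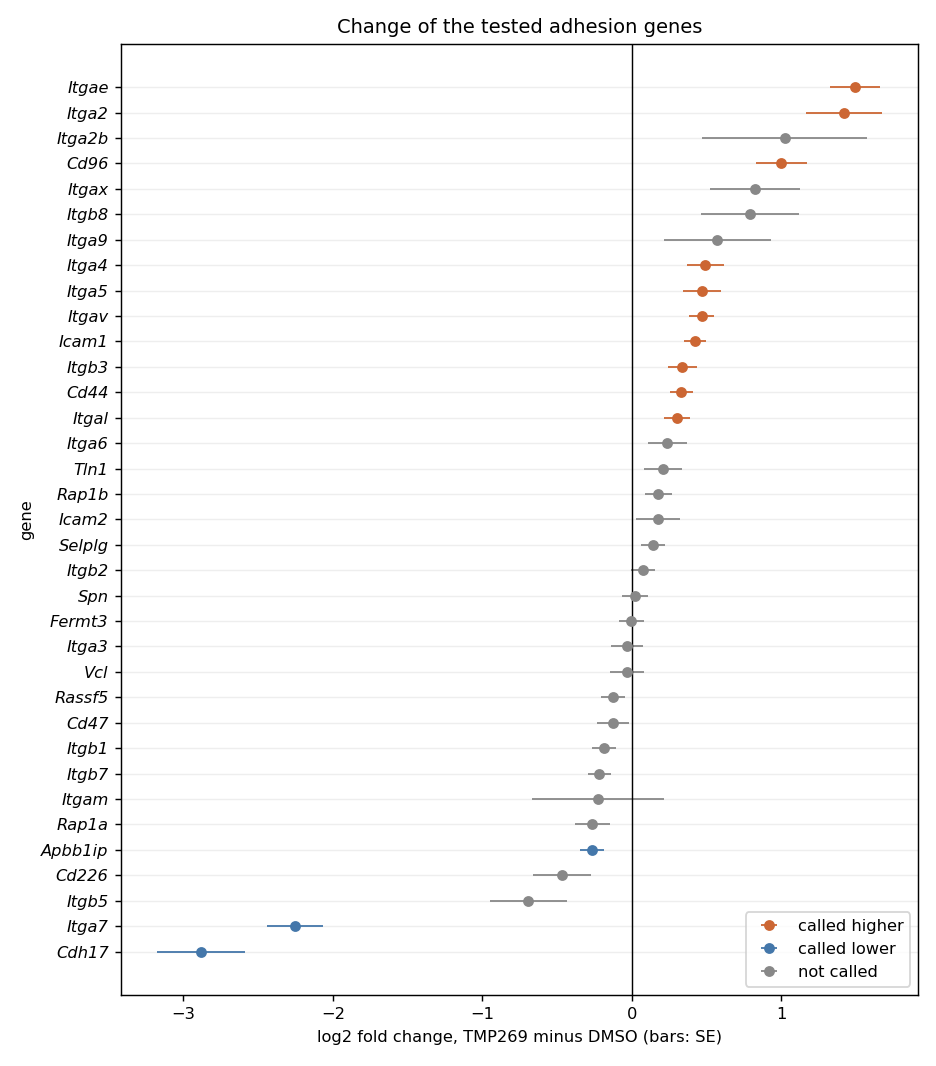
Log2 fold change of the 35 tested genes, TMP269 minus DMSO, with the standard error from limma as bars, in orange for genes called higher, blue for genes called lower and grey for genes not called. Itgae at 1.49 and Cdh17 at -2.88 are the extremes, and genes with few reads such as Itga2b have the widest bars.

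The cadherin Cdh17 had the largest fold change of the tested members. Cdh17 (LI-cadherin) mediates calcium-dependent contact between cells and is known from intestinal epithelium and from cells of the B lineage. It was at 364 and 279 normalised reads in DMSO and 58.9 and 30.4 with TMP269, so all TMP269 values were far below the controls. It fell 7.36-fold (log2 fold change -2.88 ± 0.29, limma adjusted p = 4.85e-04). B cell markers fell in the same libraries. Of 9 markers, 6 were called lower, with a median log2 fold change of -0.67, and their summed level went from 4631 and 4718 to 2667 and 2687 normalised reads. None of the 9 was at 0, and their part in the falls of Cdh17 and Itga7 was not tested. E-cadherin, Cdh1, the ligand of alphaE beta7, had 0 reads in both DMSO libraries and 3 and 1 with TMP269, all at or under the limit of 3 reads, so no fold is given.

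Among the receptors and mucins, Cd44 and Cd96 were called higher. CD44 binds hyaluronan and marks activated and memory T cells. Cd44 was at 5498 and 5688 normalised reads in DMSO and 6806 and 7284 with TMP269, with the groups apart. It rose 1.26-fold (limma adjusted p = 0.0158, and 0.124 when TMP269 replicate 2 was left out). Selplg (PSGL-1), which binds selectins during rolling, was at 6303 and 6787 in DMSO and 7151 and 7291 with TMP269. All TMP269 values were higher, but the difference did not pass (log2 fold change 0.14 ± 0.08, limma adjusted p = 0.212), and with equal library totals it passed (log2 fold change 0.25, limma adjusted p = 0.0346), while it was 0.089 without DMSO replicate 1.

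Spn (CD43), a large sialomucin of T cells, was at 7756 and 8550.3 normalised reads in DMSO and 8102 and 8452 with TMP269. Cd47, which binds thrombospondin and SIRP-alpha and associates with integrins, was at 6567 and 7827 against 6187 and 6985. Neither was called (limma adjusted p = 0.862 and 0.404), and in both the groups overlapped. Podxl, a sialomucin of vessels and blood progenitors, had 3 to 8 reads per library and did not pass the filter.

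Cd96 and Cd226 encode receptors that share the ligand CD155, with CD226 known to activate T and NK cells and CD96 to compete with it. Cd96 was at 394 and 539 normalised reads in DMSO and 804 and 1058 with TMP269, with no overlap, and rose 2.00-fold (log2 fold change 0.999 ± 0.17, limma adjusted p = 0.00408). Cd226 was at 309 and 399 in DMSO and 211 and 306 with TMP269. These groups were apart by only a few normalised reads, and Cd226 did not pass (log2 fold change -0.47 ± 0.20, limma adjusted p = 0.109). The log2 fold change moved with the library left out. It was -0.65 without DMSO replicate 1 and -0.73 without TMP269 replicate 2, but -0.28 without DMSO replicate 2 and -0.20 without TMP269 replicate 1. Within each replicate number Cd226 was lower with TMP269, although the labels do not say what a number shares. The NK cell markers, 5 genes of which 2 passed the filter, summed to 189 to 211 normalised reads in the 4 libraries with none called.

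Of the 7 activators and adaptors, limma called 0 higher and 1 lower, beside 27.5% of all tested genes called in either direction. The counts were the same in edgeR, while DESeq2 called 0 in either direction, beside 3406 and 2866 genes called in all. They were also the same by an unadjusted limma p under 0.05, where no share of all tested genes was counted. Apbb1ip (RIAM), which links Rap1 to talin, was at 1391 and 1316 normalised reads in DMSO and 1135 and 1116 with TMP269, with the groups apart. It fell 1.202-fold (log2 fold change -0.27 ± 0.08, limma adjusted p = 0.0429). This call was lost without any 1 of the 4 libraries (0.0774 to 0.177), with equal library totals (0.210), with TMM factors (0.0517), without the filter on low values (0.0567) and in DESeq2 (0.105). Rassf5 (RAPL), another Rap1 effector, was at 3361 and 3565 in DMSO and 3073 and 3287 with TMP269 and was not called (limma adjusted p = 0.276).

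Neither gene of the GTPase itself was called. Rap1a was at 3767 and 4617 normalised reads in DMSO and 3176 and 3794 with TMP269, with a slight overlap (log2 fold change -0.26 ± 0.12, limma adjusted p = 0.128). Leaving out DMSO replicate 1 or TMP269 replicate 2 gave -0.41 (0.0224) and -0.39 (0.0275), both past the threshold, and it was -0.12 and -0.14 without DMSO replicate 2 (0.536) or TMP269 replicate 1 (0.532). Rap1b was at 15113 and 15757 in DMSO and 17816 and 17113 with TMP269, with no overlap (log2 fold change 0.18 ± 0.09, limma adjusted p = 0.163). It passed with equal library totals (0.0356). Within each library the ratio of Rap1a to Rap1b was 0.249 and 0.293 in DMSO and 0.178 and 0.222 with TMP269, lower in both TMP269 libraries. The sequences of these genes are close, and no label says how reads that fit several places were counted, so their separate levels are uncertain.

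Talin and kindlin-3 bind the beta tail directly. Tln1 (talin) was at 10669.5 and 8250.0 normalised reads in DMSO and 11455 and 10266 with TMP269, with overlap and no call (log2 fold change 0.21, limma adjusted p = 0.239). It was 0.39 and passed without DMSO replicate 1 (0.0204), but it was 0.02 without DMSO replicate 2 (0.908) and 0.13 without TMP269 replicate 1 (0.609). Fermt3 (kindlin-3) was at 10076 and 9403 in DMSO and 9965 and 9457 with TMP269. Its log2 fold change was 0.00 ± 0.08 (limma adjusted p = 0.977) and 0.10 with equal library totals. Vcl (vinculin), which ties talin to actin, was at 673 and 642 in DMSO and 701 and 589.8 with TMP269 and did not pass (log2 fold change -0.03 ± 0.11, limma adjusted p = 0.856, and 0.07 with equal library totals).

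Other adhesion genes, in 8 lists set by function, were counted in the same fit, with 27.5% of all tested genes called as the background. Where DESeq2 counts are given, its background was 1338 genes called higher and 1528 lower, beside 1602 and 1846 in limma. Of 32 tested genes of Rap1 and inside-out signalling, 5 were higher and 2 lower (21.9% called). Prkd2, a protein kinase D gene that acts downstream of the T cell receptor, had a DMSO mean of 2242 ± 58.3 and a TMP269 mean of 3466 ± 39.9 normalised reads (SD, n = 2), 1.55-fold higher (limma adjusted p = 9.83e-04), and Dock2, an activator of Rac in lymphocyte migration, rose 1.26-fold (limma adjusted p = 0.0150, and 0.130 or 0.0528 when TMP269 replicate 1 or DMSO replicate 2 was left out). Sipa1l1, of a family of Rap-inactivating proteins, fell 1.33-fold and Rap1gds1, a chaperone-like binder of small GTPases, 1.22-fold (limma adjusted p = 0.00962 and 0.0217, but 0.0573 and 0.160 without TMP269 replicate 1). Rap1gds1 was also not called without DMSO replicate 2 (0.0787) or TMP269 replicate 2 (0.0903) or with equal library totals (0.0786).

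Of 29 integrin-linked cytoskeletal adaptors, 4 were higher and 4 lower (27.6% called), beside 3 and 1 in DESeq2. Bcar1 (p130Cas), a scaffold phosphorylated at integrin contacts, went from 381 ± 70.2 to 105 ± 24.5 normalised reads (SD, n = 2) and fell 3.62-fold (limma adjusted p = 6.25e-04). Its binding partner focal adhesion kinase, Ptk2, fell 1.33-fold (limma adjusted p = 0.0281), a call lost without any 1 of the 4 libraries (0.0624 to 0.100), with equal library totals (0.0976) and in DESeq2 (0.0794). The actin crosslinker Actn1 rose 1.37-fold (limma adjusted p = 0.00389).

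In the selectin list 1 of 19 tested genes was higher and 2 were lower (15.8% called). The riser was Chst2, a sulfotransferase that modifies sugar ligands, from 665 ± 107 to 1935 ± 384 normalised reads (SD, n = 2), or 2.90-fold (limma adjusted p = 4.13e-04). Cd24a, a glycosylated ligand of P-selectin also abundant on B cells, and Tpst1, which sulfates tyrosines of PSGL-1, fell 1.43-fold and 1.42-fold (limma adjusted p = 0.00247 and 0.0147, the latter 0.0897 without DMSO replicate 2).

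Among 32 tested genes of the immunoglobulin superfamily and SLAM list, 6 were higher and 1 lower (21.9% called), beside 6 and 0 in DESeq2. Of these calls, 1 higher (Madcam1) and 1 lower (Cd244) were of genes that passed the filter only through the group where they were high and so had to differ, so no p is given for them. Mcam (CD146), an adhesion molecule of endothelium and of some Th17 cells, had a DMSO mean of 61.2 ± 1.26 and a TMP269 mean of 271 ± 16.0 normalised reads (SD, n = 2), 4.37-fold higher (limma adjusted p = 1.64e-04). Madcam1, the gut ligand of alpha4 beta7, was at 3.60 and 3.62 normalised reads in DMSO, from 4 and 3 reads, and at 35.1 in each TMP269 library. Cd244 (2B4) was at 19.8 and 25.3 in DMSO and 5.17 and 5.70 with TMP269. No call in the other lists was of such a gene.

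Of 19 tetraspanins, membrane organisers that associate with integrins, 5 were higher and 3 lower (42.1% called), beside 5 and 1 in DESeq2. Cd63 rose 2.04-fold and Tspan9 1.47-fold, while Tspan5 fell 1.68-fold and Tspan2 1.398-fold (limma adjusted p = 0.00328, 0.00735, 0.0111 and 0.0275). The Tspan2 call was lost without TMP269 replicate 2 (0.163) or either DMSO library (0.0595 and 0.0863), with equal library totals (0.0860) and in DESeq2 (0.0622). Of 14 cadherin, catenin and desmosome genes, 3 were higher and 1 lower (28.6% called), beside 3 and 0 in DESeq2. The desmosomal genes Jup (plakoglobin) and Dsp (desmoplakin) rose 2.84-fold and 1.98-fold from DMSO means of 110.2 ± 26.2 and 69.9 ± 1.65 (SD, n = 2), with limma adjusted p = 0.00126 and 0.00548, and the catenin-like gene Ctnnal1 fell 1.55-fold (limma adjusted p = 0.0215, and 0.0577 to 0.110 when TMP269 replicate 1 or either DMSO library was left out, 0.0517 with equal library totals and 0.0690 in DESeq2).

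Of 18 matrix and other extracellular ligands, 1 was higher and 0 lower (5.56% called) in limma, edgeR and DESeq2. By an unadjusted limma p under 0.05, 3 were higher and 2 lower, and no share of all tested genes was counted at that threshold. The gene called by limma was Mfge8, an RGD protein that binds alphaV integrins, which rose 1.48-fold (limma adjusted p = 0.00403). Of the remaining integrin subunits, Itga10 and Itgb4 passed the filter, and 0 of the 2 were called by limma, edgeR or DESeq2 or had an unadjusted limma p under 0.05.

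**Figure D4:**
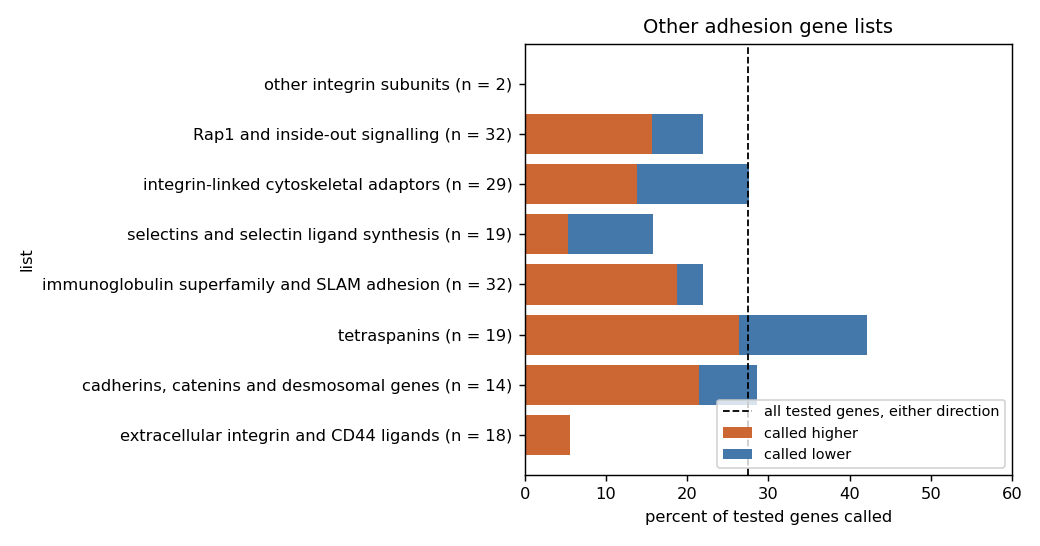
Percent of the tested genes of each list that were called higher (orange) or lower (blue) with TMP269, with the number tested in brackets and a dashed line at 27.5%, the share of all tested genes called in either direction. Tetraspanins lie above the line, at 42.1%, and matrix ligands below it, at 5.56%.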

How the data were processed

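RNA was measured in 4 libraries of Th17 cells, 2 with DMSO and 2 with TMP269. The deposited values were a normalised signal, read counts divided by 1 size factor per library, as the values themselves showed: multiplied by that factor, 100% were whole reads within 1e-06. The submitters' processing notes list HTSeq, DESeq2, Bowtie2, TopHat2 2.1.0 and CASAVA 1.4, with build mm9 and no role for each. Annotation, strand setting and handling of multiply placed reads were not given, so genes with overlapping or near-identical partners are uncertain.

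Genes with at least 10 normalised reads in at least 2 libraries were tested on log2(value + 1) with limma's trend option (version 3.58.1, R 4.3.3), without covariates, two-sided, with Benjamini-Hochberg adjustment over all tested genes. Fold changes on this scale understate changes of genes with few reads. An exact test of 2 against 2 cannot go below p = 0.333, so every p rests on the spread limma shares across genes. The code was tested on simulated data. Alternatives included edgeR (version 4.0.16) and DESeq2 (version 1.42.0) on the recovered reads. Scaling to equal totals leaving out Rn45s was chosen after seeing the data. Members, lists and markers were chosen with earlier results of these data known. All 38 members are named, and in each other list up to 2 called genes in each direction with the smallest p, except that some named results are not reported here. Promoter letters came from RefSeq (GRCm38.p6).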

Additional observations from a re-analysis of the deposited data

How the results depend on the processing

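Limits lie in the 2 libraries per group and in the depth of genes with under about 50 reads, such as Itga2b, Itgam and Itgb8. Besides the analysis reported, 14 others were run, of which edgeR and DESeq2 changed the test, its input and the scaling together. Genes called in all numbered 3448 (1602 higher and 1846 lower). With the replicate number as a replicate block they numbered 6360 (3008 and 3352), and members called were 17 higher and 8 lower in place of 10 and 3. All 13 calls were kept, and 12 members gained one (adjusted p from 3.42e-04 to 0.0398): Itga2b, Itga6, Itgax, Itgb8, Selplg, Tln1 and Rap1b were higher and Itgb1, Itgb5, Itgb7, Cd226 and Rap1a lower. The labels do not say what a number shares; deviations of same-numbered libraries correlated at 0.557 across 9904 genes, and replicate 2 differed from replicate 1 in the same direction in both groups for 28 of 35 members, a hint from the data only. Leaving out 1 library gave 2078 to 3675 calls, 1063 to 1802 higher and 1015 to 1873 lower, with 6 to 12 members higher and 2 to 4 lower. Equal library totals left 1042 genes lower, and 1151 without Rn45s, where calls were 67.3% and 65.7% higher, beside 46.5% as reported, and the median of all genes moved to 0.10 and 0.09; members called were then 12 higher and 2 lower.

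No called member changed direction. Members that were not called and changed sign did so near 0. With equal library totals, and then without Rn45s, log2 fold changes were 0.074 and 0.066 for Itga3, 0.100 and 0.092 for Fermt3, and 0.073 and 0.064 for Vcl. Fermt3 was also at 0.0091 in edgeR, 0.0039 in DESeq2 and 0.0099 with TMM factors. Values with 1 library left out ran from -0.16 to 0.10 for Itga3, from -0.054 to 0.046 for Fermt3, from -0.16 to 0.093 for Vcl, from -0.047 to 0.093 for Spn, from -0.54 to 0.087 for Itgam and from -0.25 to 0.0016 for Cd47. The causes were not tested. With a filter at 50 normalised reads, 6 members had no value, and Itga2 passed only through the TMP269 libraries. DESeq2 gave no adjusted p for Itgam.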
